A study of Mus musculus with 6 samples.

Results

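Innate sensors recognise molecules of microbes and of damaged cells, and 38 genes of this system were followed in mouse fibroblast-like synoviocytes that had received the transcription factor gene Epas1. The genes were listed by name and comprise Toll-like receptors, proteins that present lipopolysaccharide to them, adaptors, kinases, NOD-like receptors, the inflammasome and C-type lectins. Of the 38, 36 were measured among 22180 genes tested, each by the probe set with a single gene symbol and, for Gsdmd and Nod2 with 2 probe sets each, by the brighter of them. Irak4 and Ripk1 were not analysed here. Expression was measured on 6 Affymetrix arrays, 3 of cells given an adenovirus without insert (Mock) and 3 of cells given an adenovirus carrying Epas1 (Ad-Epas1), whose product HIF-2alpha is a transcription factor stabilised when oxygen is low. All cells were of strain C57BL6, came from knee synovium, were used between passages 4 and 8, and met virus at a multiplicity of infection of 800 for 2 h before 24 h of culture. Both groups had therefore received a virus. The labels describe the cells as more than 90% positive for CD90 and less than 1% positive for CD14, the protein of Cd14, which is among the genes listed. They do not say whether replicates came from separate animals or cultures, so p-values measure the spread between these arrays, part of which may be technical.

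Toll-like receptors sit at the cell surface, where they bind bacterial lipids and proteins, or in endosomes, where they bind nucleic acids. Most of them signal through the adaptor Myd88, kinases of the Irak family and the ubiquitin ligase Traf6 towards NF-kB, while Tlr3 uses the adaptor Ticam1 and Tlr4 uses both. Inflammasomes are cytosolic complexes in which a sensor such as Nlrp3 or Aim2 recruits the adaptor Pycard and activates Casp1, which matures interleukin-1beta and interleukin-18 and cleaves Gsdmd, a pore-forming protein. Synovial fibroblasts are known to carry Tlr2, Tlr3 and Tlr4, whereas Tlr7, Tlr8, Tlr13 and the lectins of the Clec4 and Clec7 families are known mainly from myeloid cells.

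All levels below are deposited log2 values. Epas1 lay between 8.51 and 8.71 on the Mock arrays and between 13.11 and 13.15 on the Ad-Epas1 arrays, as the labels require. Macrophage transcripts were present, although the labels give few CD14-positive cells: all 20 macrophage markers had a mean above 6.62, the level below which 95% of 1396 olfactory and vomeronasal receptor genes lay. They were far lower on 1 array. The summed level of the 20 was 15.55 to 15.82 on the Mock arrays (log2 of the sum), 15.70 and 15.52 on Ad-Epas1 replicates 1 and 2, and 11.91 on Ad-Epas1 replicate 3. Of the defining markers, Adgre1 stood at 5.89, Csf1r at 7.96 and Ptprc at 5.76 on that array, against at least 11.7, 11.0 and 9.27 on every other. The 16 fibroblast markers summed to 15.59 to 15.66 in Mock and 15.47 to 15.68 in Ad-Epas1. Of these 16, 3 rose and 4 fell over all arrays, beside 6.57% and 9.75% of all genes. In the fit without Ad-Epas1 replicate 3, 3 rose and 7 fell, beside 10.3% and 14.0%. Fewer cells of a type and less RNA per cell cannot be told apart in such bulk samples. Values below are therefore given with and without Ad-Epas1 replicate 3.

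Over all 6 arrays, 5 of the 36 measured genes rose and 2 fell, while 29 had no call (limma, Benjamini-Hochberg adjusted p under 0.05 over all 22180 genes). The risen genes were Traf6, Tlr5, Nod2, Ripk3 and Ly96, and the fallen ones Tlr4 and Pycard. Of all genes, 6.57% rose and 9.75% fell (1458 and 2162 genes; 1913 and 1731 with another quantile step between arrays), beside 13.9% and 5.56% of the members. The median log2 fold change of the members was 0.04, beside 0.05 for all genes. Without Ad-Epas1 replicate 3, 12 rose and 2 fell, beside 10.3% and 14.0% of all genes, and the median of the members was 0.27 beside 0.03. All 7 genes called over the 6 arrays kept their direction and call in that fit, and Cd14, Tollip, Irak2, Casp1, Clec7a, Clec4d and Clec4e joined those that rose. Without Mock replicate 2 the counts were 3 risen and 0 fallen, where those over all genes were 425 and 762, and without Ad-Epas1 replicate 1 or 2 no member fell either, where 1352 and 925 of all genes did (limma; 3 members fell at an unadjusted p under 0.05 over all arrays).

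**Figure D1:**
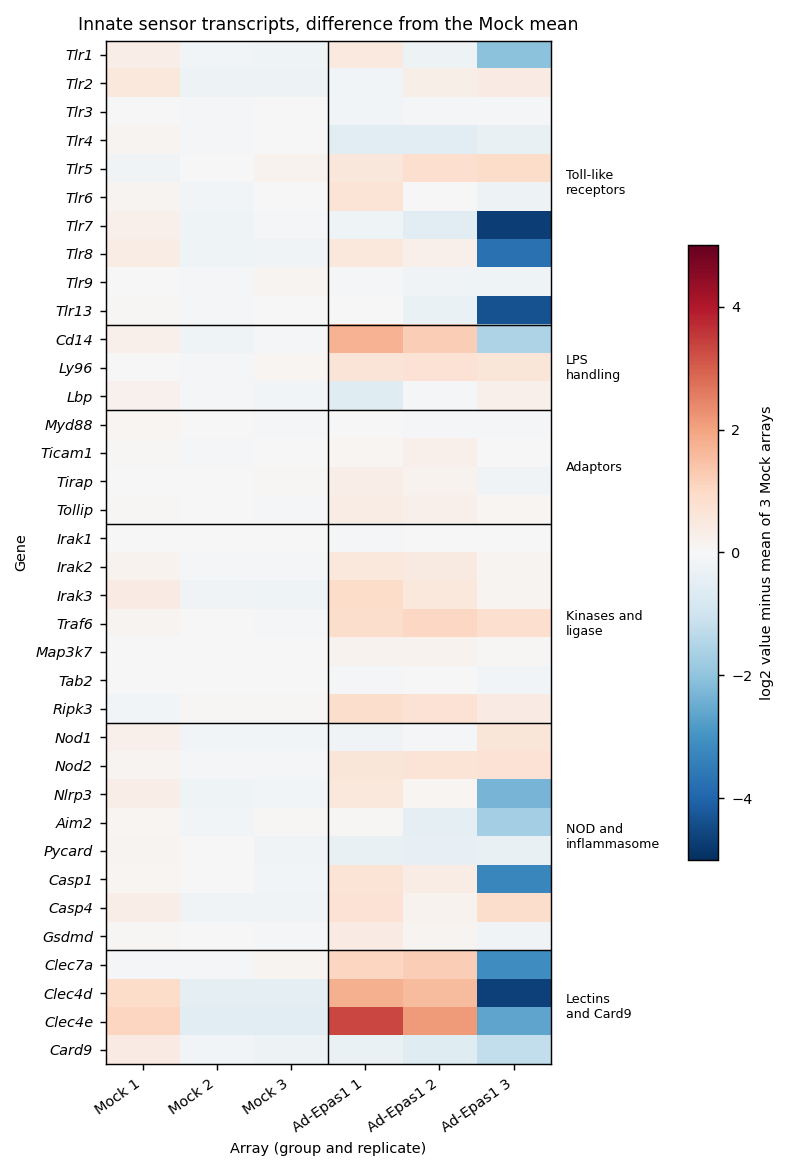
Level of each of the 36 measured genes on each array, as the log2 value minus the mean of the 3 Mock arrays (colour scale from -5 to 5), in rows grouped by role. The Ad-Epas1 replicate 3 column holds 11 genes in blue that lie at -1.56 or lower, while the other 25 lie between -1.25 and 0.91 there.

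Of the 10 Toll-like receptors, Tlr5 rose, Tlr4 fell and 8 did not pass. Tlr5, the receptor of bacterial flagellin, stood at 8.60, 8.77 and 8.94 on Mock replicates 1, 2 and 3 and at 9.34, 9.63 and 9.68 on Ad-Epas1 replicates 1, 2 and 3. Every Ad-Epas1 array lay above every Mock array. The rise was 1.71-fold (0.77 on the log2 scale, SE 0.13, adjusted p = 0.0104), and the call ended without Mock replicate 2 (adjusted p = 0.0523). Tlr4, the signalling receptor for lipopolysaccharide, stood at 9.81, 9.55 and 9.63 in Mock and at 9.12, 9.13 and 9.31 in Ad-Epas1, again without overlap. Its level was 1.39-fold lower in Ad-Epas1 (-0.48 on the log2 scale, SE 0.10, adjusted p = 0.0193). The fall of Tlr4 was -0.54 without Ad-Epas1 replicate 3 (adjusted p = 0.0082), and adjusted p rose to between 0.0514 and 0.0766 when Mock replicate 2 or 3 or Ad-Epas1 replicate 1 or 2 was left out.

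Tlr2, which pairs with Tlr1 or Tlr6 to bind bacterial lipopeptides, stood at 9.65, 8.86 and 8.86 in Mock and at 9.0, 9.42 and 9.52 in Ad-Epas1. The groups overlapped, because Mock replicate 1 was the highest of the 6 arrays (log2 fold change 0.19, 95% interval -0.40 to 0.77, adjusted p = 0.637). Tlr6 lay between 7.25 and 8.16 on all arrays, with its highest value on Ad-Epas1 replicate 1 and its lowest on Ad-Epas1 replicate 3. Tlr3, the receptor of double-stranded RNA, varied least among the receptors: it lay between 10.13 and 10.22 in Mock and between 10.07 and 10.14 in Ad-Epas1 (log2 fold change -0.09, 95% interval -0.24 to 0.07). Tlr9, which binds bacterial and viral DNA, lay between 7.16 and 7.41 in Mock and between 7.04 and 7.21 in Ad-Epas1 (-0.15, 95% interval -0.36 to 0.07).

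The other 4 receptors were low on a single array. Tlr7 and Tlr8, endosomal receptors of single-stranded RNA, stood at 4.37 and 5.56 on Ad-Epas1 replicate 3, where they had stood at 8.84 and 9.80 on Ad-Epas1 replicate 1 and at 8.50 and 9.54 on replicate 2. In Mock, Tlr7 lay between 8.87 and 9.34 and Tlr8 between 9.09 and 9.65. Tlr13, which recognises bacterial ribosomal RNA, stood at 10.24, 10.09 and 10.18 in Mock, at 10.19 and 9.83 on the first 2 Ad-Epas1 replicates and at 5.83 on the third. Tlr1 stood at 8.95, 8.49 and 8.42 in Mock and at 9.11, 8.38 and 6.58 in Ad-Epas1. None of the 4 passed over all arrays, where their 95% intervals spanned from -2.02 to 0.82 for Tlr1 and from -4.49 to 0.82 for Tlr7. Without Ad-Epas1 replicate 3 they did not pass either. Their differences were then 0.12 for Tlr1, -0.40 for Tlr7 (95% interval -0.80 to -0.01), 0.38 for Tlr8 (-0.06 to 0.82) and -0.16 for Tlr13 (-0.45 to 0.12).

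Among the proteins that hand lipopolysaccharide to Tlr4, Ly96 rose, and Cd14 and Lbp did not pass over all arrays. Ly96, also known as MD-2, is the subunit of the Tlr4 complex that binds the lipid. It stood at 11.47, 11.38 and 11.58 in Mock and at 12.13, 12.20 and 12.08 in Ad-Epas1. The groups did not overlap, and the rise was 1.57-fold (0.66 on the log2 scale, SE 0.08, adjusted p = 0.0040). Ly96 thus rose where Tlr4 fell, and Ad-Epas1 replicate 3 did not stand apart for it. Cd14, the co-receptor that brings lipopolysaccharide to Ly96 and Tlr4, stood at 10.42, 9.99 and 10.14 in Mock, at 11.92 and 11.40 on Ad-Epas1 replicates 1 and 2, and at 8.62 on replicate 3. That array was the lowest of the 6 and the other Ad-Epas1 arrays the highest. Over all arrays Cd14 differed by 0.46 (SE 0.80, adjusted p = 0.721), and without Ad-Epas1 replicate 3 it rose 2.79-fold (1.48 on the log2 scale, SE 0.19, adjusted p = 0.0025). Lbp, the secreted lipopolysaccharide-binding protein, stood at 12.21, 11.92 and 11.88 in Mock and at 11.39, 11.92 and 12.28 in Ad-Epas1, with overlapping groups (-0.14, SE 0.22, adjusted p = 0.696).

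The 4 adaptors changed little, and none passed over all arrays (1 rose at an unadjusted p under 0.05 by limma). Myd88, the adaptor shared by most Toll-like receptors and the interleukin-1 receptor, stood at 10.65, 10.57 and 10.49 in Mock and at 10.53, 10.52 and 10.53 in Ad-Epas1. Its difference of -0.04 had a 95% interval from -0.21 to 0.12. Ticam1 differed by 0.11 (95% interval -0.12 to 0.33), and Tirap, which brings Myd88 to Tlr2 and Tlr4, by 0.11 (-0.20 to 0.42). Tollip, an inhibitor of Irak signalling, stood at 9.55 to 9.67 in Mock and at 10.00, 9.85 and 9.73 in Ad-Epas1, with no overlap. It did not pass over all arrays (0.24, SE 0.09, adjusted p = 0.108) and rose by 0.31 without Ad-Epas1 replicate 3 (adjusted p = 0.0366).

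Of the 7 measured kinases and the ligase below the adaptors, Traf6 and Ripk3 rose and 5 did not pass. Traf6, the ubiquitin ligase on which Irak signals converge, stood at 8.97, 8.83 and 8.73 in Mock and at 9.71, 9.90 and 9.69 in Ad-Epas1. Its rise of 1.89-fold was the largest of the members called over all arrays (0.92 on the log2 scale, SE 0.09, adjusted p = 0.0024), and the groups were clearly apart. Ripk3, a kinase that triggers necroptosis, stood at 9.21, 9.39 and 9.41 in Mock and at 10.20, 10.07 and 9.74 in Ad-Epas1, again without overlap. It rose 1.59-fold (0.67 on the log2 scale, SE 0.13, adjusted p = 0.0177), but not when any 1 of the Mock arrays or Ad-Epas1 replicate 2 was left out (highest adjusted p = 0.0716). Traf6 and Ly96 kept their calls whichever array was left out (limma, adjusted p up to 0.0205 and 0.026). The probe set used for Nod2 did so too (adjusted p up to 0.0325), but it was selected through its Ad-Epas1 levels. The other probe set of Nod2, described below, did not pass.

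The other kinases moved less. Irak2, a kinase that sustains late signalling, stood at 9.52, 9.30 and 9.25 in Mock and at 9.90, 9.80 and 9.49 in Ad-Epas1. Mock replicate 1 overlapped Ad-Epas1 replicate 3, and the difference of 0.37 did not pass (adjusted p = 0.102); without that Ad-Epas1 array Irak2 rose by 0.49 (adjusted p = 0.0163). Irak3, also called IRAK-M, restrains the pathway and stood at 9.96, 9.36 and 9.33 in Mock and at 10.46, 10.07 and 9.70 in Ad-Epas1 (0.53, SE 0.24, adjusted p = 0.178; 0.72 and 0.0555 without Ad-Epas1 replicate 3). For both, Mock replicate 1 was the highest Mock array. The differences of Irak1 (-0.03, 95% interval -0.19 to 0.13), Map3k7, which encodes the kinase TAK1 (0.15, -0.02 to 0.31), and its partner Tab2 (-0.07, -0.23 to 0.09) were small and did not pass.

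**Figure D2:**
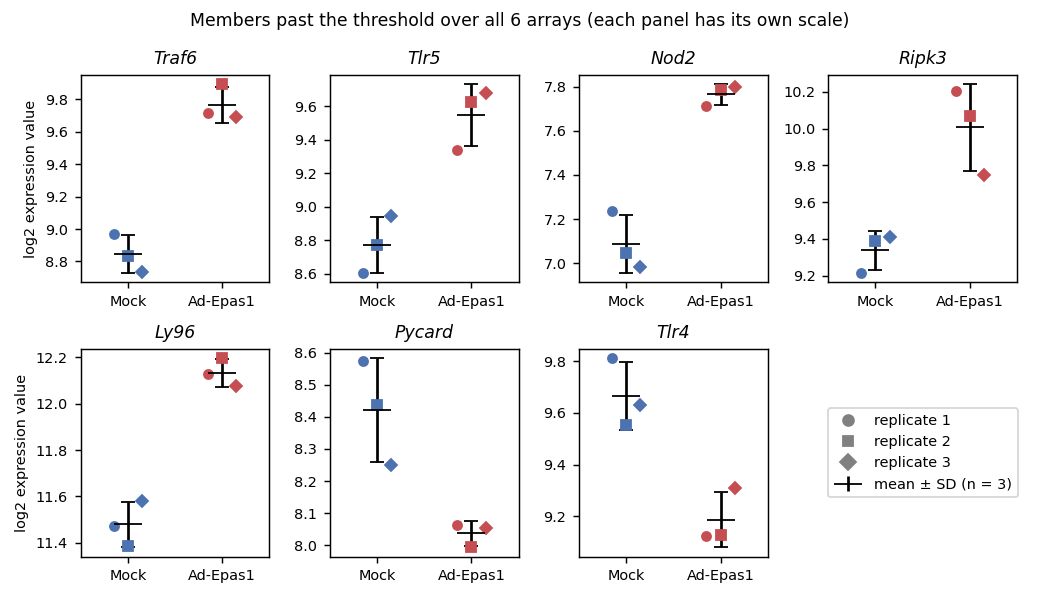
Log2 expression values of the 7 genes past the threshold over all 6 arrays, with 1 point per array (symbol by replicate number) and the mean ± SD of 3 arrays as bars; each panel has its own scale. In no panel do the groups overlap, but the genes were chosen by the difference between these same values. Ad-Epas1 replicate 3 lies on the same side of Mock as the other Ad-Epas1 arrays in each. For Ripk3 it stands at 9.74, between Mock (up to 9.41) and the other Ad-Epas1 arrays (10.07 and 10.20). For Tlr4 it stands at 9.31, between those arrays (9.12 and 9.13) and Mock (from 9.55).

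The delivered factor binds DNA at hypoxia response elements with the core ACGTG or GCGTG. Promoter sequence is shown for Traf6 and Ripk3, which rose and held such a core. It is not shown for Tlr5 and Nod2, which rose and held none. The sequences are the 250 bases before the start site in RefSeq's annotation of GRCm38.p6, 5′ to 3′ in the direction of the gene (Traf6, chr2:101678170-101678419, plus strand; Ripk3, chr14:55788858-55789107, minus strand). Capitals mark these cores and GAGGAA, a core bound by PU.1 and other ETS factors, on either strand.
Traf6: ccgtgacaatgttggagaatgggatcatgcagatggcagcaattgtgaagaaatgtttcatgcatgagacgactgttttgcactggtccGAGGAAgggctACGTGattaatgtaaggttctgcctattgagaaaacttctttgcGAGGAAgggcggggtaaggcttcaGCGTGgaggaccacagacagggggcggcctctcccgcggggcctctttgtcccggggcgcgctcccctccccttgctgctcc
Ripk3: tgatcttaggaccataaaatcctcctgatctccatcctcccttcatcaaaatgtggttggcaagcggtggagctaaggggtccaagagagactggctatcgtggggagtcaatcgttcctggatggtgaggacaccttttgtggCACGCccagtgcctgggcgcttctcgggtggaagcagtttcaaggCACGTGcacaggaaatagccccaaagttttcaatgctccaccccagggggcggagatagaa
Traf6 held 2 hypoxia response cores and 2 GAGGAA cores. Ripk3 held 3 hypoxia response cores, of which 2 overlap as the palindrome CACGTG, and 0 GAGGAA cores. Of 4 risen members with an entry in the promoter table, Traf6 and Ripk3 held a hypoxia response core and Tlr5 and Nod2 did not. At any listed start site, 47.8% of 16990 tested genes held one. A match is a description of the letters, not a site of binding.

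Of the 8 measured NOD-like receptors and inflammasome genes, Nod2 rose, Pycard fell and 6 did not pass. Nod2, a cytosolic sensor of bacterial muramyl dipeptide, stood at 7.24, 7.05 and 6.98 in Mock and at 7.71, 7.79 and 7.80 in Ad-Epas1. The groups did not overlap, and the rise was 1.60-fold (0.68 on the log2 scale, SE 0.09, adjusted p = 0.0047). The other probe set of Nod2 had means of 7.14 in Mock and 7.30 in Ad-Epas1, a difference of 0.16 that did not pass (SE 0.08, adjusted p = 0.216 over all probe sets). It was the brighter of the pair in Mock, where the one used had a mean of 7.09, and the one used was brighter over the 6 arrays only through Ad-Epas1 (7.76). The measured rise thus decided which probe set stands for Nod2, and the 1.60-fold rise is that of a single probe set. With the mean over both, Nod2 rose by 0.42 (adjusted p = 0.0168). Nod1, which senses another peptidoglycan fragment, stood at 9.49, 9.09 and 9.11 in Mock and at 9.04, 9.18 and 9.82 in Ad-Epas1. Its highest value was on Ad-Epas1 replicate 3, and its difference of 0.12 did not pass (adjusted p = 0.747).

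Pycard, the adaptor ASC that joins sensors to Casp1, stood at 8.57, 8.44 and 8.25 in Mock and at 8.06, 7.99 and 8.06 in Ad-Epas1. Ad-Epas1 was 1.30-fold lower, without overlap of the groups (-0.38 on the log2 scale, SE 0.09, adjusted p = 0.0382). This call was lost when Mock replicate 1 or 2 or Ad-Epas1 replicate 1 or 2 was left out (highest adjusted p = 0.131) and with another quantile step (-0.24, adjusted p = 0.164). Nlrp3, a sensor of membrane damage and ion loss, stood at 8.45, 7.90 and 7.96 in Mock, at 8.64 and 8.19 on the first 2 Ad-Epas1 replicates and at 5.77 on the third. Aim2, a sensor of cytosolic DNA, stood at 7.99, 7.73 and 7.94 in Mock and at 7.94, 7.44 and 6.19 in Ad-Epas1. Without Ad-Epas1 replicate 3 neither passed, Nlrp3 differing by 0.31 (95% interval -0.18 to 0.80) and Aim2 by -0.20 (-0.59 to 0.18).

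Casp1 and Casp4, inflammatory caspases whose genes are neighbours on chromosome 9, behaved differently on Ad-Epas1 replicate 3. Casp1 stood at 8.40, 8.31 and 8.17 in Mock, at 8.98 and 8.68 on Ad-Epas1 replicates 1 and 2, and at 5.01 on replicate 3. Casp4, also called caspase-11, which responds to lipopolysaccharide in the cytosol, stood at 9.88, 9.37 and 9.35 in Mock and at 10.26, 9.72 and 10.41 in Ad-Epas1. The array on which Casp1 was lowest was thus the one on which Casp4 was highest. Casp1 rose by 0.54 without that array (SE 0.12, adjusted p = 0.0187), against -0.73 with it (SE 0.99, adjusted p = 0.643). Casp4 did not pass with it (0.60, SE 0.22, adjusted p = 0.112) or without it (0.46, adjusted p = 0.180), and Mock replicate 1 overlapped Ad-Epas1 replicate 2. Gsdmd, the pore-forming substrate of both caspases, lay between 8.09 and 8.23 in Mock and stood at 8.59, 8.30 and 8.00 in Ad-Epas1 (0.13, SE 0.15, adjusted p = 0.561). The other probe set of Gsdmd, which was dimmer, had means of 6.75 in Mock and 7.03 in Ad-Epas1. Its difference of 0.28 did not pass (limma, SE 0.08, adjusted p = 0.07 over all probe sets).

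Of the members, the lectins Clec4d and Clec4e had the largest SD among Ad-Epas1 arrays (3.68 and 3.16). Clec4e, known as Mincle, binds mycobacterial glycolipid and a protein of dead cells. It stood at 9.35, 7.74 and 7.78 in Mock, at 11.63 and 10.43 on Ad-Epas1 replicates 1 and 2, and at 5.65 on replicate 3. Its neighbour Clec4d, a partner receptor of Clec4e, stood at 10.78, 9.41 and 9.45 in Mock and at 11.67, 11.47 and 5.21 in Ad-Epas1. For both genes Ad-Epas1 replicate 3 was the lowest of the 6 arrays and the other Ad-Epas1 arrays the highest, and Mock replicate 1 lay above the other Mock arrays. Clec7a, known as Dectin-1, binds fungal beta-glucan and stood at 9.01, 8.95 and 9.19 in Mock and at 10.11, 10.28 and 5.95 in Ad-Epas1.

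Over all arrays these 3 lectins did not pass. The differences were 0.95 for Clec4e (SE 1.47, adjusted p = 0.690), -0.43 for Clec4d (SE 1.67, adjusted p = 0.879) and -0.27 for Clec7a (SE 1.10, adjusted p = 0.884). Without Ad-Epas1 replicate 3 all 3 rose: Clec4e 6.68-fold (2.74 on the log2 scale, SE 0.56, adjusted p = 0.0147), Clec4d 3.23-fold (1.69, SE 0.40, adjusted p = 0.0259) and Clec7a 2.21-fold (1.15, SE 0.10, adjusted p = 0.00074). On those 5 arrays 3 of the 20 macrophage markers rose and 6 fell, beside 10.3% and 14.0% of all genes. Mpeg1, Ms4a7 and Cd53 rose, and Mrc1, C1qa, C1qb, C1qc, Cx3cr1 and Aif1 fell. The summed level of the 20 on Ad-Epas1 replicates 1 and 2 lay within or below the Mock range. The part of macrophage content in the rises of the lectins was not tested. Card9, the adaptor that carries lectin signals to NF-kB, did not rise with them. It stood at 8.63, 8.05 and 7.94 in Mock and at 7.86, 7.59 and 6.96 in Ad-Epas1, a difference of -0.74 that did not pass although the groups did not overlap (SE 0.27, adjusted p = 0.114; -0.48 and 0.153 without Ad-Epas1 replicate 3).

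**Figure D3:**
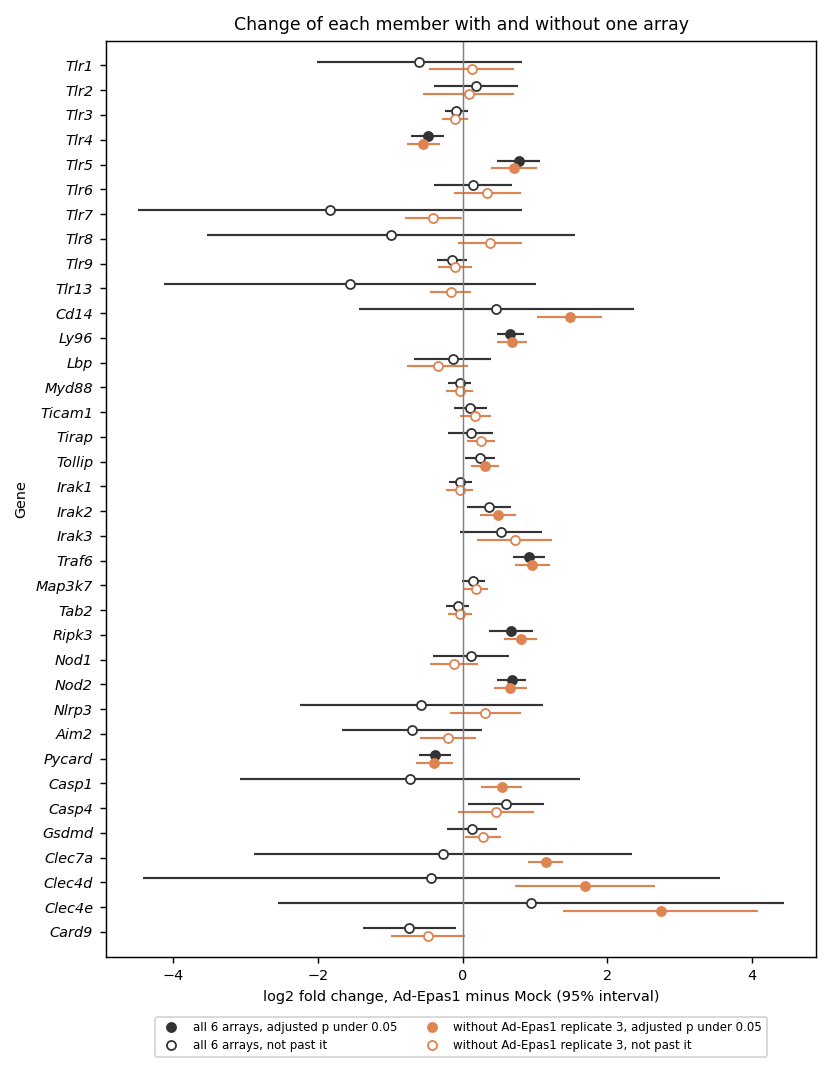
Log2 fold change, Ad-Epas1 minus Mock, with its 95% interval for each of the 36 genes, over all 6 arrays (black) and without Ad-Epas1 replicate 3 (orange); filled points have an adjusted p under 0.05. The intervals of Cd14, Casp1, Clec7a, Clec4d and Clec4e are wide over all arrays and lie above 0 without that array, while those of Traf6, Ly96, Nod2, Tlr5 and Tlr4 are nearly the same in both fits.

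On Ad-Epas1 replicate 3 the members fell apart into those that were low and those that were not. For 11 genes this array lay at least 1 log2 unit below the lowest of the other 5 arrays: Tlr1, Tlr7, Tlr8, Tlr13, Cd14, Nlrp3, Aim2, Casp1, Clec7a, Clec4d and Clec4e. This is 30.6% of the members, beside 1.21% of all genes, and the limit was set after the values were seen. Just inside it lay Aim2 (-1.24) and just outside it Card9 (-0.63). On that array 10 of the 11, all but Cd14, stood below 6.62, so the size of their loss is not exact. From the mean of Ad-Epas1 replicates 1 and 2 to replicate 3 the 11 differed by a median of -4.11 (from -6.37 for Clec4d to -1.49 for Aim2) and the other 25 by a median of -0.10 (from -0.76 to 0.71). The 20 macrophage markers differed by a median of -3.73 (from -6.61 to 0.12), with 18 of the 20 past the same limit, and the 16 fibroblast markers by 0.32 (from -0.62 to 0.93). Of the endothelial, lymphocyte and neutrophil and mast cell markers, 2 of 8, 1 of 7 and 1 of 9 had a mean above 6.62, so most of them had no room to fall. The part of macrophage content in these differences was not tested.

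**Figure D4:**
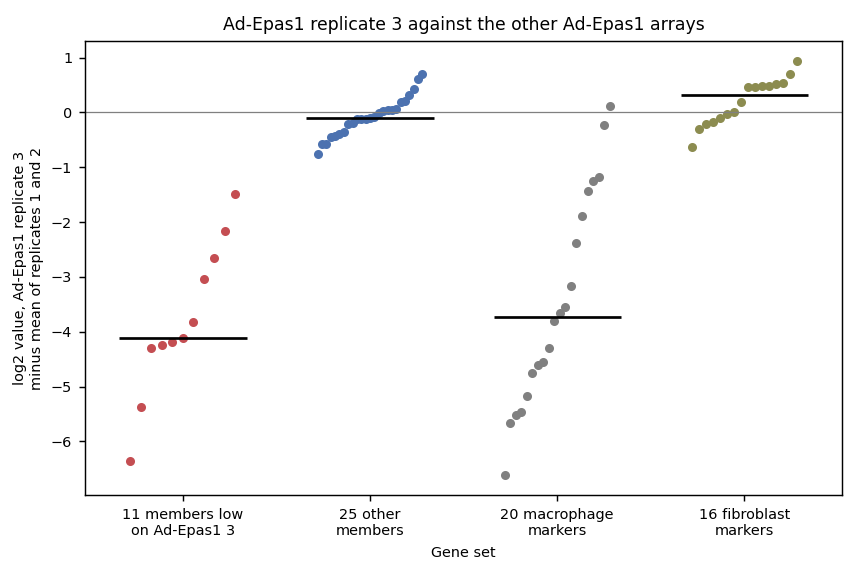
Log2 value on Ad-Epas1 replicate 3 minus the mean of Ad-Epas1 replicates 1 and 2, with 1 point per gene and a line at the median of each set. The 11 low members (median -4.11) span a range like that of the 20 macrophage markers (median -3.73), while the other 25 members (median -0.10) and the 16 fibroblast markers (median 0.32) lie near 0; the 11 were chosen by their low level on this array.

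Neighbouring genes did not always share the pattern. Tlr1 and Tlr6 are next to each other on chromosome 5, and Ad-Epas1 replicate 3 differed from the lowest other array by -1.80 for Tlr1 and by -0.11 for Tlr6. These receptors are close in sequence, and cross-hybridisation between their probe sets was not tested. Tlr7 and Tlr8 on the X chromosome, and Clec4d and Clec4e on chromosome 6, were low together.

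**Figure D5:**
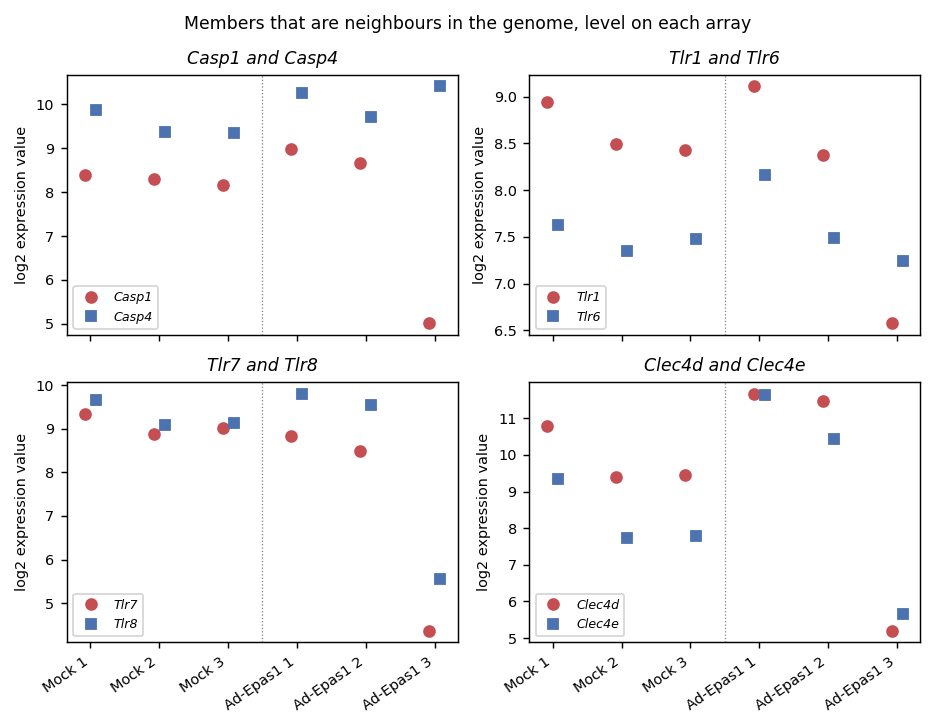
Log2 expression value on each of the 6 arrays for 4 pairs of members that are neighbours in the genome, with Mock left and Ad-Epas1 right of the dotted line; levels are to be compared within a gene, not between genes. On Ad-Epas1 replicate 3 Casp1 stands at 5.01 and Casp4 at 10.41, whereas both genes of the Tlr7 and Tlr8 pair and of the Clec4d and Clec4e pair are low.

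Promoters of the Tlr1 and Tlr6 pair and of the Tlr7 and Tlr8 pair are not shown. Those of Casp1 and Casp4, which went apart on Ad-Epas1 replicate 3, and of Clec4d and Clec4e, which were low together, are given below. They are again the 250 bases before the start site (RefSeq, GRCm38.p6), the one farthest upstream where several are listed, with GAGGAA and the hypoxia response cores in capitals on either strand, so that TTCCTC is GAGGAA on the other strand. The regions are chr9:5298267-5298516, plus strand, for Casp1, chr9:5308599-5308848, plus strand, for Casp4, chr6:123261857-123262106, plus strand, for Clec4d, and chr6:123289872-123290121, minus strand, for Clec4e.
Casp1: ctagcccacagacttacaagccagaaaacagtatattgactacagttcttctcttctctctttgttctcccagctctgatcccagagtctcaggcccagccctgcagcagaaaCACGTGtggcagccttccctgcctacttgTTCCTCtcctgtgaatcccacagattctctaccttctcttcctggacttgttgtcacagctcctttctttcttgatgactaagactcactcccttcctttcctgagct
Casp4: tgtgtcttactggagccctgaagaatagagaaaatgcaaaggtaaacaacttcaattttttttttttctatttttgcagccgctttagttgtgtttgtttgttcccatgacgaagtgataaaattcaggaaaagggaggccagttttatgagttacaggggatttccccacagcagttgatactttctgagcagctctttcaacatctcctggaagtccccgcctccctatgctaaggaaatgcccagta
Clec4d: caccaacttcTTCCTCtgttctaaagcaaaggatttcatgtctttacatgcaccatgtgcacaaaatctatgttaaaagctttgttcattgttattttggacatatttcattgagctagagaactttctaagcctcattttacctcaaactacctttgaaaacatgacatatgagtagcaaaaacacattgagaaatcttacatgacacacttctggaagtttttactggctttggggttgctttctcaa
Clec4e: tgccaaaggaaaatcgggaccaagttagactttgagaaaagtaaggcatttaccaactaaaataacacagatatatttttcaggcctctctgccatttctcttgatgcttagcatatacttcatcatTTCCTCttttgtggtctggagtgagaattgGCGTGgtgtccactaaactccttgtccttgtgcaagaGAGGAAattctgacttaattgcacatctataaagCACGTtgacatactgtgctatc
Casp1 held 1 GAGGAA core and Casp4 0. Clec4d held 1 and Clec4e 2. Of the hypoxia response cores, Casp1 held the palindrome CACGTG, Clec4e held 2, and Casp4 and Clec4d held 0. PU.1, the product of Spi1, is the ETS factor that sets the myeloid lineage. Of the 11 low genes, 9 had an entry in the promoter table, and all 9 held GAGGAA at a listed start site. Among the other members it was 6 of 21 (28.6%), among the macrophage markers 10 of 15 (66.7%) and among all tested genes with an entry 25.4%. Hypoxia response cores were in 4 of the 9 (44.4%) and in 7 of the 21 (33.3%). Among all tested genes with an entry the share was 47.8%, and among the macrophage markers 1 of 15 (6.67%). These shares describe genes chosen by their values, and no test was made of them.

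Mock replicate 1 also stood apart for many members. It was the highest Mock array for 26 of 36 (72.2%), beside 42.3% of all genes. Clec4e, Clec4d and Tlr2 are examples above. When Mock replicate 1 was left out together with Ad-Epas1 replicate 3, in a fit chosen after the values were seen, 15 members rose, Tlr8, Irak3 and Casp4 among them, and Tlr4 alone fell. Of all 22180 genes 2621 rose and 3379 fell in that fit.

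Other genes of the same pathways were read beside the members, from a list of 84 of which 77 were measured. Of these, 8 rose (10.4%, beside 6.57% of all genes), 4 fell (5.19%, beside 9.75%) and 65 did not pass over all arrays, with a median of 0.07. Without Ad-Epas1 replicate 3, 18 rose (23.4%, beside 10.3%) and 12 fell (15.6%, beside 14.0%). Of those 18, the ones without a call over all arrays were Cd36, Ikbkg, Peli1, Traf1, Il1b, Trim25, Clec4n, Clec4a1, Syk, Marco and Fpr2. Of those 12, the 8 that had no call over all arrays were Cd180, Ly86, Clec5a, Clec12a, Plcg2, Trem1, Trem2 and Cd209a. Of the 77, 15 (19.5%, beside 1.21% of all genes) were at least 1 log2 unit lower on that array than on any other. Among them were these 8 genes except Cd209a, Cd36 and Clec4n of the risen ones, and Tyrobp and Fcer1g, which are also macrophage markers. Mlkl, the executioner of necroptosis that Ripk3 phosphorylates, stood at 10.21, 10.00 and 10.01 in Mock and at 11.29, 11.32 and 11.02 in Ad-Epas1 and rose by 1.14 (SE 0.11, adjusted p = 0.0022). Both genes of this step thus rose. Zbp1, a nucleic acid sensor upstream of Ripk3, rose by 0.58 (adjusted p = 0.0059), Ninj1, which ruptures the membrane of dying cells, by 0.91 (adjusted p = 0.0097) and Map3k8, the kinase TPL2, by 0.63 (adjusted p = 0.013). The call of Ninj1 ended without Mock replicate 3, and that of Map3k8 without Mock replicate 2 or 3 or Ad-Epas1 replicate 2.

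The 4 genes that fell over all arrays were of the inflammasome and cell death part of the list, in which 4 of 25 also rose. Nek7, a kinase that binds Nlrp3 for its activation, stood at 10.98, 11.22 and 11.20 in Mock and at 10.35, 10.33 and 10.52 in Ad-Epas1 and fell by 0.73 (SE 0.09, adjusted p = 0.0050). Nlrp1b, another inflammasome sensor, fell by 0.73 (adjusted p = 0.0106), Txnip, a binding partner of Nlrp3, by 0.35 (adjusted p = 0.0139) and Il18, a substrate of Casp1, by 0.52 (adjusted p = 0.0188). Nlrp1b stood below 6.62 on every Ad-Epas1 array (6.58, 6.31 and 6.16), so the size of its fall is not exact. Without Mock replicate 2 the calls of Nlrp1b, Txnip and Il18 ended, and those of Txnip and Il18 also without Mock replicate 3 or Ad-Epas1 replicate 2. Il1b, the other cytokine that Casp1 matures, went with the lectins: it stood at 8.57, 6.06 and 6.34 in Mock and at 12.7, 12.2 and 5.54 in Ad-Epas1. Over all arrays it did not pass (3.15, SE 1.88, adjusted p = 0.292 by limma). Without Ad-Epas1 replicate 3 it rose by 5.45 (SE 0.71, adjusted p = 0.0028). On Mock replicates 2 and 3 Il1b stood below 6.62, and Mock replicate 1 lay far above them, so the size of this rise is not exact.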

How the data were processed

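The authors deposited log2 values for each probe set and array, made by RMA in Affymetrix Expression Console 1.3.1 according to the labels' list of processing tools. RMA brings the arrays to nearly one distribution, which hides a change shared by most genes, and it compresses large changes. Array medians were 6.77 to 6.84. No genome build of the probe sets is stated in the sources used here. Of 41345 probe sets, the 23521 annotated with a single symbol were used, and 1814 with several symbols and 16010 without a gene were not. A microarray has no read depth, and 3 arrays a group limit the precision.

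Groups came from the titles. Both groups were compared with limma 3.58.1 in R 4.3.3 (lmFit, eBayes), two-sided, adjusted over 22180 genes, with no filter on level. The fit was tested on simulated data whose noise was independent between genes and arrays. Those data held no array that departed for many genes at once, as Ad-Epas1 replicate 3 did. No exact permutation test here can go below p = 0.1. All measured members are named. Of the other pathway genes, up to 4 called in each direction with the smallest p are named, with Il1b, Il18 and those called only without Ad-Epas1 replicate 3. Members and lists were chosen with earlier results of these data known. The results were recomputed with each array left out, with a block for the replicate number, another quantile step, median centring, a filter on dim genes, a trended robust prior and the mean over probe sets. Promoter sequences are those of RefSeq on GRCm38.p6, which held 32 of the 38 listed genes.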

Additional observations from a re-analysis of the deposited data

How the results depend on the processing

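Over all arrays 5 members rose and 2 fell. With 1 array left out, 3 to 12 members rose and 0 to 2 fell, and 2 to 18 of the other pathway genes rose and 1 to 12 fell; the counts of 12, 18 and 12 were those without Ad-Epas1 replicate 3. Over all genes 418 to 2290 rose and 762 to 3100 fell in these fits, the most again without that array. When Mock replicate 1 was left out as well, a fit added after the data were seen, 15 members rose and 1 fell, 21 pathway genes rose and 13 fell, and 2621 of all genes rose and 3379 fell. With another quantile step 1 member fell, since Pycard did not pass. Median centring, the filter on dim genes, the trended robust prior and the mean over probe sets changed no call of a member.

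Members without a call over all arrays turned sign in some of these fits with arrays left out. Their log2 fold changes then ranged from -1.14 to 0.29 for Tlr1, -0.12 to 0.41 for Tlr6, -1.74 to 0.56 for Tlr8, -0.17 to 1.60 for Cd14, -0.35 to 0.09 for Lbp, -0.06 to 0.01 for Irak1, -0.12 to 0.27 for Nod1, -1.13 to 0.49 for Nlrp3, -1.45 to 0.59 for Casp1, -0.01 to 0.31 for Gsdmd, -1.02 to 1.15 for Clec7a, -1.54 to 2.14 for Clec4d and -0.25 to 3.27 for Clec4e. Tlr1, Tlr8, Nod1, Nlrp3, Casp1, Clec7a and Clec4d turned without Ad-Epas1 replicate 3, the other 6 without Ad-Epas1 replicate 1, and Clec4d also without Mock replicate 1 (0.02). Irak1 also turned with another quantile step (0.01). The cause was not tested.

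Whether the replicate numbers pair the arrays is not known here. Deviations from the group means correlated at 0.341, -0.189 and 0.214 over all genes between arrays of the same number. Between arrays of different numbers they correlated at -0.331 to 0.267. With 3 arrays a group these values cannot settle it. With a replicate block 6 members rose and 2 fell, Irak3 and Card9 being called and Pycard not, and 8 pathway genes rose and 5 fell. Levels near those of olfactory and vomeronasal receptor genes limit the fold changes of Il1b, Nlrp1b and the genes low on Ad-Epas1 replicate 3.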
